A study of Mus musculus with 35 samples.

Results

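Lumbar motoneurons of mice that carry mutant human SOD1 were compared with those of wild type (WT) littermates at 11 weeks of age, when the mutant mice are not yet visibly ill. The comparison takes every array titled as SOD1 or wild type at week 11, 8 SOD1 mice and 6 WT mice, which are 14 of the 35 arrays of the series. The other 21 arrays come from mice of 15 weeks (7 WT, 7 SOD1 mice given vehicle and 7 SOD1 mice given G-CSF by an implanted pump) and give the contrast of the later stage at the end, but they also enter every limma fit below, which estimates the spread between mice from all 5 groups. The SOD1 mice were females, hemizygous for the high-copy G93A transgene (B6.Cg-Tg(SOD1-G93A)1Gur/J), so that human mutant SOD1 is made in every cell type and on top of the mouse gene, and the WT mice, labelled C57BL/6J, were littermates without it. No treatment is given for either group of week 11. From each mouse 300 motoneurons were cut out of stained lumbar sections with a laser, their RNA was amplified in 2 rounds, and 1 Affymetrix mouse genome array was hybridised. Each array stands for 1 mouse, and limma's SE and p-values measure the spread between mice pooled over the 35 arrays (30 residual degrees of freedom). In RNA pooled from many cells, fewer cells of a type and less RNA per cell cannot be told apart.

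As background, motoneurons under protein folding or nutrient stress phosphorylate the initiation factor eIF2, which lowers general protein synthesis while the transcription factor Atf4 is translated and switches on genes for amino acid synthesis, amino acid import and tRNA charging. This is known as the integrated stress response. A motoneuron whose axon is cut or has withdrawn from muscle switches on an injury program, which includes Atf3 and growth-associated proteins such as Sprr1a. In SOD1 mice the large fast motoneurons are known to lose their muscle contacts first.

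Levels are the deposited log2 values, in which 1 unit is a doubling, and a difference is the mean of SOD1 mice minus the mean of WT mice on that scale, with the SE of limma's fit. A probe set is the group of probes that reads 1 transcript. After the study's own filter on dim and flat probe sets 31352 of 45101 remained, of which 25580 named exactly 1 gene, for 14256 genes. A transcript was called when its unadjusted p was below 0.05, its Benjamini-Hochberg adjusted p over all 31352 probe sets below 0.1 and its fold change at least 1.5 in limma. For counts over gene lists each gene was read at its brightest probe set.

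The arrays differed between the groups in their overall shape. The SD of the values over an array was 2.361 ± 0.010 in SOD1 mice and 2.297 ± 0.082 in WT mice (SD over mice, n = 8 and 6), and the median of an array was 3.202 ± 0.011 and 3.266 ± 0.077, neither overlapping between groups (2-sided exact permutation test, p = 0.000333 for each, the smallest this design allows). WT mouse 6 stood furthest out, with an array median of 3.422 and a correlation of 0.911 with the rest of its group. The 18S control read 10.3 ± 0.7 in SOD1 mice and 9.48 ± 0.83 in WT mice (exact permutation test, p = 0.0689). Sorted by mean level into 5 equal groups, the genes had median differences of -0.079, -0.022, 0.099, 0.124 and 0.089 from the dimmest to the brightest group, and quantile normalization brought these medians to between -0.02 and 0.01. The same step took the list median of autophagy from 0.10 to -0.01, of respiratory complex I from 0.08 to -0.01 and of endoplasmic reticulum genes from 0.17 to 0.06. It took that of vesicle and SNARE genes from 0.25 to 0.13 and of stress response regulators from 0.72 to 0.59. Without WT mouse 6 and without quantile normalization, the medians of the 5 level groups were -0.02, 0.02, 0.05, 0.02 and 0.01, from the dimmest to the brightest. Much of the shift in the brighter groups was thus absent without this 1 array. Several list medians without this mouse are given with their lists below. How much of each list median the shift makes up was not tested. All 12 general neuron markers were above the array median in every mouse, with Nefl, Nefm and Nefh, the neurofilament genes, between 10.48 and 13.53. Of the 12 motoneuron markers 10 were. The filament Prph read between 8.99 and 10.53 and the receptor Ret between 9.99 and 11.04, while Slit3 averaged 3.98 in SOD1 and 3.44 in WT mice and Slc5a7 4.79 and 4.86. The motoneuron list averaged 7.08 in SOD1 and 6.98 in WT mice, beside 7.08 and 6.81 for astrocyte and 7.41 and 7.10 for oligodendrocyte markers. The purity of the cut cells was not tested. The probe set for Chat, the enzyme that makes acetylcholine, was at 3.07 in both groups, so it did not mark these cells on this array.

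In all, 413 transcripts were called, of which 354 were higher and 59 lower in SOD1 motoneurons. Among probe sets naming 1 gene, 370 were called (1.45% of those tested), 323 higher (1.26%) and 47 lower (0.184%), and these fell on 338 genes. At the brightest probe set 244 of 14256 genes were called (1.71%), 216 higher (1.52%) and 28 lower (0.196%), while in 111 of the 14256 (0.779%), called or not, the 8 SOD1 and the 6 WT values did not overlap. Of the 413 called transcripts 93 had no overlap, 86 higher and 7 lower. The median difference over all 14256 genes was 0.03, and 53.7% of them lay above 0. The large changes ran one way: 19 transcripts were called at 4-fold or more, and all 19 were higher. Without WT mouse 6 the count fell to 232 (209 higher, 23 lower), 183 of them shared with the 413. Without WT mouse 5 it fell to 147, 142 of them shared. Of the 413, 114 (110 higher, 4 lower) were called in each of the 14 fits that left out 1 mouse, and 111 of these also after quantile normalization. Below, a gene said to hold in all 14 fits is one of this smaller set, each fit still sharing the spread of the week 15 mice. With only the arrays of week 11 the count was 290, 199 of them shared with the 413, and of the genes said below to hold in all 14 fits Mmp12, Stip1, Napa and the more changed probe set of Psat1 were then not called. With the 18S control as a covariate 121 of the 413 were called, and of these genes that probe set of Psat1, Shmt2, Eno2, Stip1, Vcp, Ecel1 and Pfn1 were not. The median of all genes was 0.01 without WT mouse 6, and of the list medians printed below those that moved by more than 1.5 times are given both ways.

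**Figure D1:**
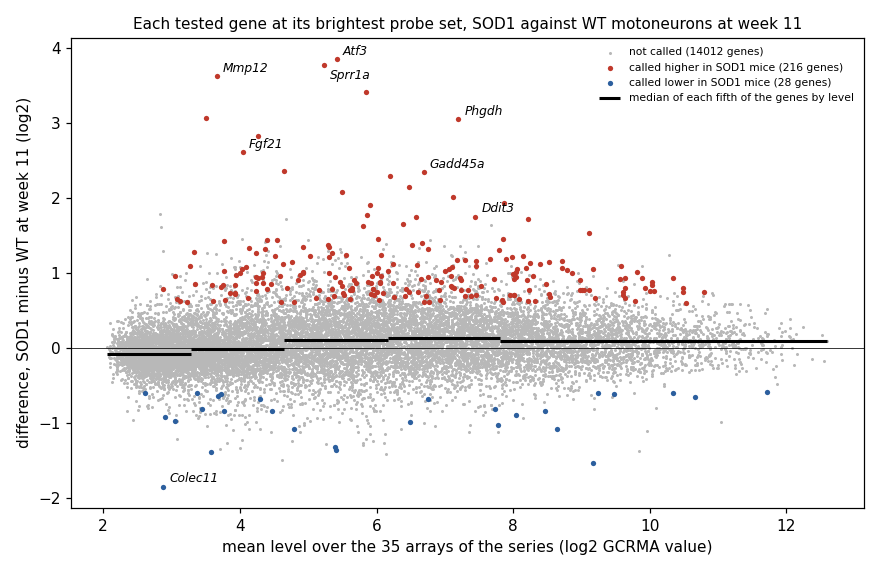
Each point is 1 of 14256 tested genes at its brightest probe set, with its mean level over all 35 arrays (log2) on the x axis and the difference SOD1 minus WT at week 11 (log2) on the y axis; coloured points are called genes and black bars the medians of the 5 level groups. The 216 higher genes reach further from 0 than the 28 lower ones and lie mostly above the dimmest levels.

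The list of integrated stress response regulators, which also holds products of the response such as Fgf21, had the highest median of the 58 function lists with all 14 mice. Without WT mouse 6 it did not, at 0.51 beside 0.56 for the axon regeneration effectors. Members of all 58 lists were chosen with earlier results of these data known, so a list's rank and median are not an independent result. Of 20 tested, 7 were called higher (Atf4, Ddit3, Chac1, Cebpb, Nupr1, Fgf21 and Stbd1) and none lower, 19 had a difference above 0, and their median was 0.72 beside 0.03 over all genes. Atf4, the transcription factor at the head of this response, averaged 9.82 ± 0.20 in SOD1 mice and 9.03 ± 0.50 in WT mice at its brightest probe set (difference 0.80 ± 0.19, limma adjusted p = 0.0385), and 8.64 ± 0.27 against 7.58 ± 0.26 at its other (1.06 ± 0.13, limma adjusted p = 1.34e-05). Ddit3, also called Chop, is an Atf4 target that takes part in stress-induced cell death. Its levels were 7.46, 8.25 and 9.27 in the lowest, median and highest SOD1 mouse and 6.31, 6.53 and 6.85 in WT mice, a 3.35-fold difference (1.74 ± 0.20, limma adjusted p = 7.64e-06). Every SOD1 mouse was above every WT mouse. Fgf21, a hormone secreted by stressed cells, read 3.80, 5.59 and 7.01 against 2.77, 2.94 and 3.21 (6.09-fold, 2.61 ± 0.36, limma adjusted p = 7.38e-05). Nupr1, a small stress-induced chromatin protein, read 4.44, 5.2 and 6.49 against 2.76, 3.21 and 3.55 at its more changed probe set (4.52-fold, 2.18 ± 0.41, limma adjusted p = 0.00579). For Fgf21 and Nupr1 too the groups did not overlap. Chac1, which degrades glutathione, was 2.27-fold higher (1.18 ± 0.19, limma adjusted p = 0.000731), and Cebpb, a transcription factor that pairs with Atf4, 2.05-fold higher (1.03 ± 0.20, limma adjusted p = 0.00642). Stbd1, a glycogen-binding protein, was 4.04-fold higher (2.02 ± 0.47, limma adjusted p = 0.0366), but its difference fell to 1.6 without WT mouse 6 (limma adjusted p = 0.119). Ddit3, Chac1, Cebpb, Fgf21 and the Nupr1 probe set given here held in all 14 fits. After quantile normalization 5 of the 20 were called and the median was 0.59.

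Atf4 acts with C/EBP proteins at a composite site known as the C/EBP-ATF response element, and the letters TGATGCAA were searched on both strands of RefSeq promoter windows (GRCm38.p6, 250 bases before to 50 after each start) as a core of this element. They were found in 294 of 32851 windows of all genes (0.895%), in 94 of 14606 windows of the tested genes (0.644%), in 8 of 337 windows of genes called higher (2.37%) and in 1 of 46 windows of genes called lower (2.17%). Among the lists they were found in 4 of 21 windows of the stress response regulators (19.0%), 4 of 13 of the aminoacyl-tRNA synthetases (30.8%), 2 of 19 of the amino acid transporters (10.5%), 1 of 24 of the serine and amino acid synthesis genes (4.17%) and 0 of 37 of the axon regeneration effectors. The lists were chosen with earlier results known, and all but the last hold kinds of genes that Atf4 is known to switch on. Their shares are therefore not an independent result. A match is a string of letters and not a measured binding site. The stretches below are shown because their genes were called higher, fall under the rule for named genes and hold the letters before the start. Chchd10 and Vldlr were also called higher and hold them, but lie outside that rule and are not shown. Each stretch is written 5′ to 3′ on the gene's own strand, where the core reads TTGCATCA, and capitals mark it. They come from chr1:191183396-191183483 minus strand (Atf3), chr7:45615582-45615669 minus (Fgf21), chr7:126625533-126625620 minus (Nupr1), chr2:119351009-119351096 plus (Chac1), chr15:11399659-11399713 minus (Tars) and chr8:94386277-94386364 plus (Herpud1), and the core begins 110, 139, 110, 193, 15 and 112 bases before the start, in that order.
Atf3: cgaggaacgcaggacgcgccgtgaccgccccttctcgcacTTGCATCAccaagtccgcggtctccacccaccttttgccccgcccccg
Fgf21: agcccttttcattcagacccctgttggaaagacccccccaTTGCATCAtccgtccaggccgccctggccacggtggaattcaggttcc
Nupr1: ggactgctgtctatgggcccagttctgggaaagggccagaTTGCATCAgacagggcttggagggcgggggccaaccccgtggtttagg
Chac1: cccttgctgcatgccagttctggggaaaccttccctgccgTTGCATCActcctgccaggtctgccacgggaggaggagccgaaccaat
Tars: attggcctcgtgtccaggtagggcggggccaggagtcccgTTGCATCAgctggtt
Herpud1: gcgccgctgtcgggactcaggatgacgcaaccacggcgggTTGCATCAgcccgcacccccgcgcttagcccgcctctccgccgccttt

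The genes that make serine, glycine, one-carbon units and related amino acids were the next group with many calls. Of 23 tested, 7 were called higher (Phgdh, Psat1, Psph, Shmt2, Aldh18a1, Asns and Odc1), none lower, and the median was 0.47. Without WT mouse 2 or WT mouse 5 the list had 4 calls. Phgdh, Psat1 and Psph are the 3 enzymes of serine synthesis, in that order. Phgdh read 6.88, 7.56 and 8.73 in the lowest, median and highest SOD1 mouse and 3.11, 4.83 and 5.18 in WT mice (8.68-fold, 3.12 ± 0.44, limma adjusted p = 0.000126), without overlap. At another probe set the value was 8.26-fold, while the lowest of its 4 probe sets gave a difference of 0.54, and all 4 are of a kind whose probes can match other transcripts in part. Psat1 read 7.84, 8.78 and 9.04 against 3.42, 7.30 and 7.66 (3.74-fold, 1.90 ± 0.45, limma adjusted p = 0.0377), where WT mouse 6 was far below the other WT mice, and 1.89-fold at its brighter probe set. Psph was 2.12-fold higher (1.08 ± 0.27, limma adjusted p = 0.0537) with overlapping groups. Shmt2, the mitochondrial enzyme that splits serine into glycine and a one-carbon unit, was 2.58-fold higher (1.37 ± 0.28, limma adjusted p = 0.0138), and Odc1, which opens polyamine synthesis, 2.90-fold (1.54 ± 0.23, limma adjusted p = 0.000214), both without overlap. Phgdh, Psat1, Shmt2 and Odc1 held in all 14 fits, Psph in 8 and the proline synthesis enzyme Aldh18a1 in 9.

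Amino acid import and tRNA charging moved in the same direction at fewer genes. Of 20 amino acid transporters 4 were called higher and none lower, with a median of 0.25. Slc7a3, a carrier of arginine and lysine, read 4.65, 6.23 and 7.11 in SOD1 mice and 3.42, 3.62 and 4.09 in WT mice, without overlap (5.14-fold, 2.36 ± 0.35, limma adjusted p = 0.000217). Its relative Slc7a1 was 1.91-fold higher (0.93 ± 0.18, limma adjusted p = 0.00602). Slc7a5, the large neutral amino acid carrier, was 3.36-fold higher (1.75 ± 0.26, limma adjusted p = 0.000212), and its partner chain Slc3a2 2.08-fold (1.06 ± 0.28, limma adjusted p = 0.0628). The 3 Slc7 genes held in all 14 fits and Slc3a2 in 4. Of 20 aminoacyl-tRNA synthetases, which attach amino acids to their tRNAs, 4 were called higher (Rars for arginine, Wars for tryptophan, Tars for threonine and Gars for glycine), none lower, and the median was 0.45. It had 2 calls without WT mouse 6. Wars was 2.17-fold higher (1.12 ± 0.20, limma adjusted p = 0.00343) and held in all 14 fits. Rars, Tars and Gars were 2.24-, 2.03- and 1.91-fold higher, with limma adjusted p-values of 0.0823, 0.0608 and 0.0804, and were called in 5, 8 and 5 of the 14 fits. WT mouse 6 was the lowest WT mouse for Tars and Gars by a wide margin, at 5.74 and 7.58 where the next lowest were 6.91 and 9.68.

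Protein synthesis itself was read in 2 lists, set here against the 1.71% of all genes called. Of 38 translation initiation and elongation factors 2 were called higher, Eef1a1, which brings tRNAs to the ribosome (2.07-fold, limma adjusted p = 0.0538), and Eif5a (1.79-fold, limma adjusted p = 0.0537), which is 5.26%, with a list median of 0.24. None was called without WT mouse 6, and the median was 0.14. Of 42 cytosolic ribosomal protein genes 1 was called (2.38%), Rpl27a (1.19 ± 0.34, limma adjusted p = 0.0917), and its other probe set gave -0.07. The median of that list was 0.12, near that of other bright genes. Eef1a1 and Eif5a were called in 9 of the 14 fits each, and Rpl27a in 3.

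**Figure D2:**
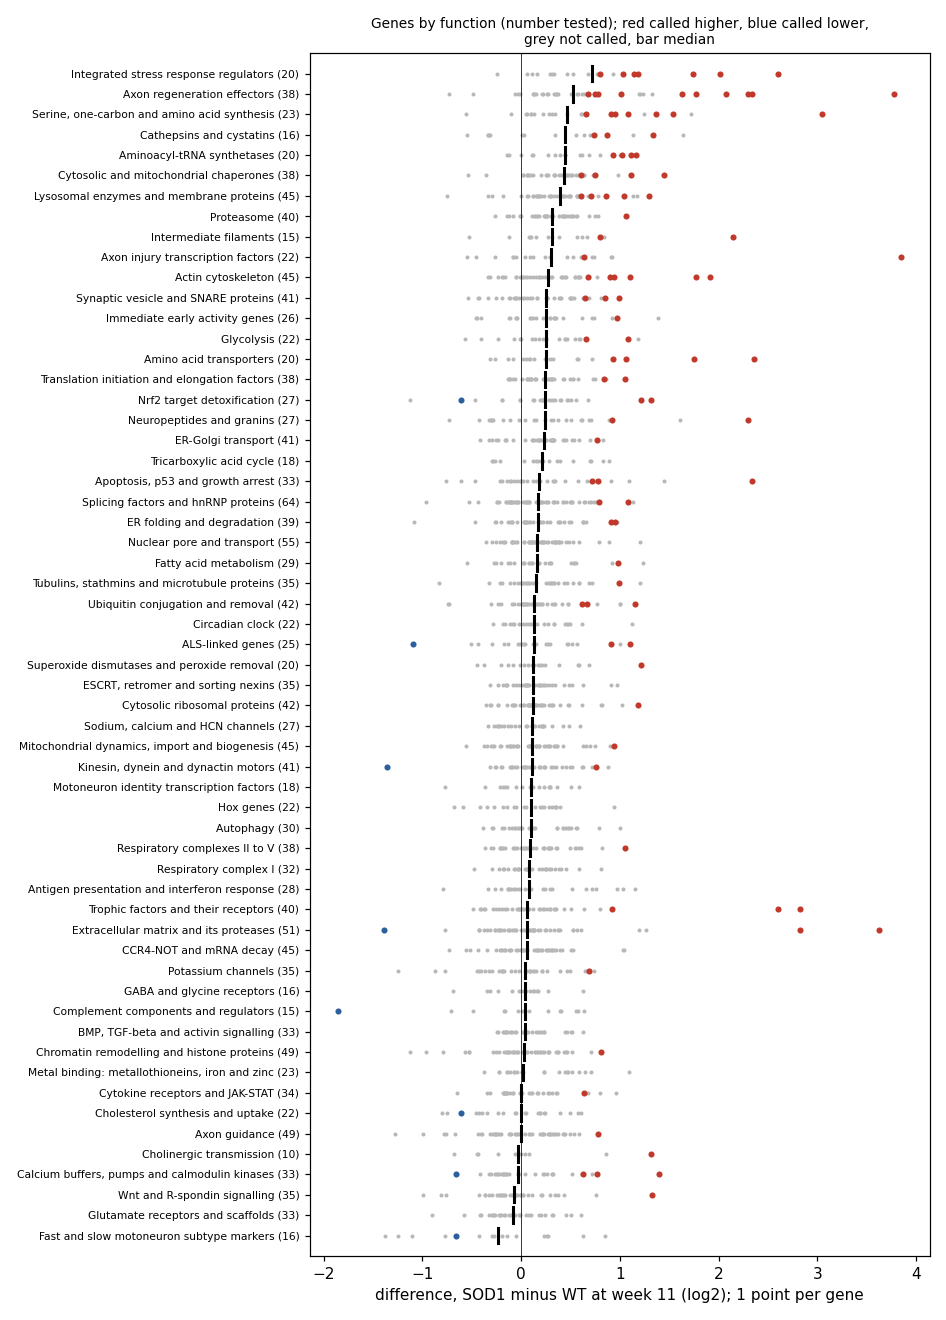
Genes by function list, 1 point per gene at its brightest probe set, with the difference SOD1 minus WT at week 11 (log2) on the x axis, called genes in colour and a bar at each list's median. The stress response regulators have the highest median, 0.72, and the axon regeneration effectors 0.53. Without WT mouse 6 the order turns, at 0.51 and 0.56. The lists were chosen with earlier results of these data known.

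Genes for protein folding and removal had positive medians with a small number of calls. Of 38 cytosolic and mitochondrial chaperones 4 were called higher, none lower, 36 had a difference above 0, and the median was 0.44. The chaperones had 2 calls and a median of 0.26 without WT mouse 6. Cct8, a subunit of the ring that folds actin and tubulin, read 7.84, 8.94 and 9.23 in SOD1 mice and 4.32, 7.87 and 8.42 in WT mice (2.72-fold, 1.45 ± 0.38, limma adjusted p = 0.0628). Here the lowest value was again WT mouse 6. Cct8 was called in 8 of the 14 fits and not without that mouse. Stip1, which passes clients from Hsp70 to Hsp90, was 2.16-fold higher (1.11 ± 0.23, limma adjusted p = 0.0145) and held in all 14 fits. Hspb1, a small heat shock protein that is also raised by axon injury, read 9.88, 10.5 and 10.96 against 9.45, 9.79 and 10.08 (1.68-fold, limma adjusted p = 0.0803), and Dnajb1, an Hsp70 partner, was 1.52-fold higher (limma adjusted p = 0.0537). These last were called in 3 and 10 of the 14 fits. Of 42 ubiquitin genes 3 were called higher, with a median of 0.13 (0.06 without WT mouse 6). Uchl1, an abundant neuronal ubiquitin hydrolase, read 9.62, 9.94 and 10.73 against 8.50, 8.84 and 9.43, without overlap (2.23-fold, 1.16 ± 0.21, limma adjusted p = 0.00456), and held in all 14 fits. The ligase Stub1 was 1.59-fold and the conjugating enzyme Ube2s 1.53-fold higher, called in 9 and 3 fits. Of 40 proteasome genes 33 had a difference above 0, the median was 0.31, and only Psmc5, a subunit of the regulatory cap, was called (2.10-fold, limma adjusted p = 0.0874; 4 of 14 fits). No proteasome gene was called without WT mouse 6, when the median was 0.17.

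In the endoplasmic reticulum list 2 of 39 genes were called higher and the median was 0.17 (1 and 0.07 without WT mouse 6). Vcp, the ATPase that pulls proteins out of membranes and whose human gene can cause ALS, was 1.87-fold higher (0.91 ± 0.19, limma adjusted p = 0.0149) and held in all 14 fits. Herpud1, a part of the degradation machinery of this organelle, read 6.86, 7.05 and 7.37 in SOD1 mice against 5.60, 6.18 and 6.53 in WT mice (1.94-fold, limma adjusted p = 0.064), without overlap, and was called in 8 fits. No autophagy gene of 30 was called (median 0.10, or 0.06 without WT mouse 6). The largest difference among them was that of Sqstm1, the receptor p62 that collects ubiquitinated cargo, at 1.00 ± 0.32 (limma adjusted p = 0.152).

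Lysosomal genes followed. Of 45 lysosomal enzymes and membrane proteins 5 were called higher, none lower, 40 had a difference above 0, and the median was 0.39 (2 calls and 0.26 without WT mouse 6). Gpnmb, a lysosomal membrane glycoprotein also made by activated microglia, read 4.07, 4.75 and 5.32 in SOD1 mice and 3.5, 3.77 and 4.05 in WT mice (1.82-fold, 0.86 ± 0.19, limma adjusted p = 0.0266). The groups did not overlap. Scpep1, a serine carboxypeptidase, was 1.64-fold higher (0.71 ± 0.17, limma adjusted p = 0.0435); it and Gpnmb held in all 14 fits, though Scpep1 was not called after quantile normalization. Hexa, which breaks down gangliosides, was 2.46-fold higher (1.30 ± 0.37, limma adjusted p = 0.0942) but called in 2 fits. The proton pump subunits Atp6v1f and Atp6v0a1 were 2.07- and 1.53-fold higher and called in 4 fits each. Of 16 cathepsins and cystatins 3 were called higher, with a median of 0.45. Ctsz, a carboxypeptidase known in microglia as well as neurons, read 4.94, 5.80 and 6.61 against 2.67, 3.5 and 3.62 (5.71-fold, 2.51 ± 0.30, limma adjusted p = 9.74e-06), without overlap. Its 3 probe sets were all called, with differences from 1.34 to 2.51. Ctsb, a lysosomal endopeptidase, read 10.37, 10.79 and 10.98 against 8.94, 10.06 and 10.24 (1.83-fold, limma adjusted p = 0.0109), and the cathepsin inhibitor Cstb was 1.67-fold higher (limma adjusted p = 0.0537). Ctsz and Ctsb held in all 14 fits.

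The axon injury lists held the largest single differences. Atf3, the transcription factor that injured motoneurons switch on, read 4.71, 7.61 and 8.56 in the lowest, median and highest SOD1 mouse and 3.14, 3.53 and 4.05 in WT mice (14.4-fold, 3.85 ± 0.51, limma adjusted p = 6.1e-05). All SOD1 mice were above all WT mice, with SOD1 mouse 2 set apart from the other SOD1 mice, which began at 7.17. Of 22 injury-related transcription factors 2 were called at the brightest probe set, Atf3 and Stat3, which carries cytokine signals to the nucleus (1.56-fold, 0.64 ± 0.16, limma adjusted p = 0.0494), with a median of 0.30. Atf3 held in all 14 fits and Stat3 in 11. Atf3 was counted among the injury genes only, and which program raised it was not tested. Sox11, a regulator of axon growth, was called only at 1 of its 6 probe sets, where it averaged 4.30 ± 1.16 against 2.50 ± 0.29 (1.81 ± 0.37, limma adjusted p = 0.0117).

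Of 38 axon regeneration effectors 10 were called higher (Sprr1a, Flnc, Hspb1, Adcyap1, Ecel1, Sema6a, Itga7, Lgals3, Gadd45a and Rhov), none lower, 33 had a difference above 0, and the median was 0.53. Sprr1a, a small proline-rich protein that promotes axon outgrowth, read 2.69, 6.91 and 8.97 in SOD1 mice and 2.67, 2.81 and 3.06 in WT mice (13.7-fold, 3.78 ± 0.68, limma adjusted p = 0.0035). In SOD1 mouse 2 it was at the WT level, and in the other SOD1 mice it was at 5.35 or above. Gadd45a, which responds to DNA damage and to axotomy, read 6.81, 8.30 and 8.66 against 3.2, 6.01 and 6.67 (5.07-fold, 2.34 ± 0.42, limma adjusted p = 0.00343), without overlap. Ecel1, a neuronal endopeptidase-like protein needed at neuromuscular terminals, was 3.09-fold higher (1.63 ± 0.35, limma adjusted p = 0.0197). These 3 held in all 14 fits. The other 7 were not called in all 14 fits, and without WT mouse 5 the list had 3 calls. Adcyap1, which encodes the neuropeptide PACAP, read 3.69, 7.57 and 9.43 against 4.44, 4.95 and 5.33 (4.91-fold, 2.30 ± 0.60, limma adjusted p = 0.0605) and was called in 8 fits; SOD1 mouse 2 was below every WT mouse. Flnc, an actin crosslinker, was 3.41-fold higher (limma adjusted p = 0.0695; 5 fits) and Lgals3, the lectin galectin-3, 4.22-fold (limma adjusted p = 0.0908; 2 fits). Rhov was 1.61-fold higher and Sema6a, a membrane guidance cue, 1.71-fold; Rhov was lost only without WT mouse 5 (0.59, limma adjusted p = 0.138). After quantile normalization 3 of the 38 were called, with a median of 0.44.

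The 8 SOD1 mice did not show this program to an equal degree. For the 10 called effectors the median level above the WT mean was 0.97, 0.46, 1.66, 1.49, 1.43, 1.12, 2.52 and 2.76 in SOD1 mice 1 to 8. Mouse 2 was the lowest SOD1 mouse for 6 of the 10 genes and mouse 1 for 3, while mouse 8 was the highest for 6 and mouse 7 for 3. For the 7 called stress response regulators the same medians ran from 0.80 in mouse 6 to 1.79 in mouse 8, and mouse 2 stood at 1.67. Mouse 2 was still the lowest SOD1 mouse for 2 of these 7 genes, as were mice 1 and 6 for 2 each. Its smallest level above the WT mean was 0.4. In SOD1 mouse 2, which had Sprr1a, Ccn3 and Mmp12 within the WT range and Adcyap1 below it, Ddit3 was at 8.25, the level of the median SOD1 mouse.

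**Figure D3:**
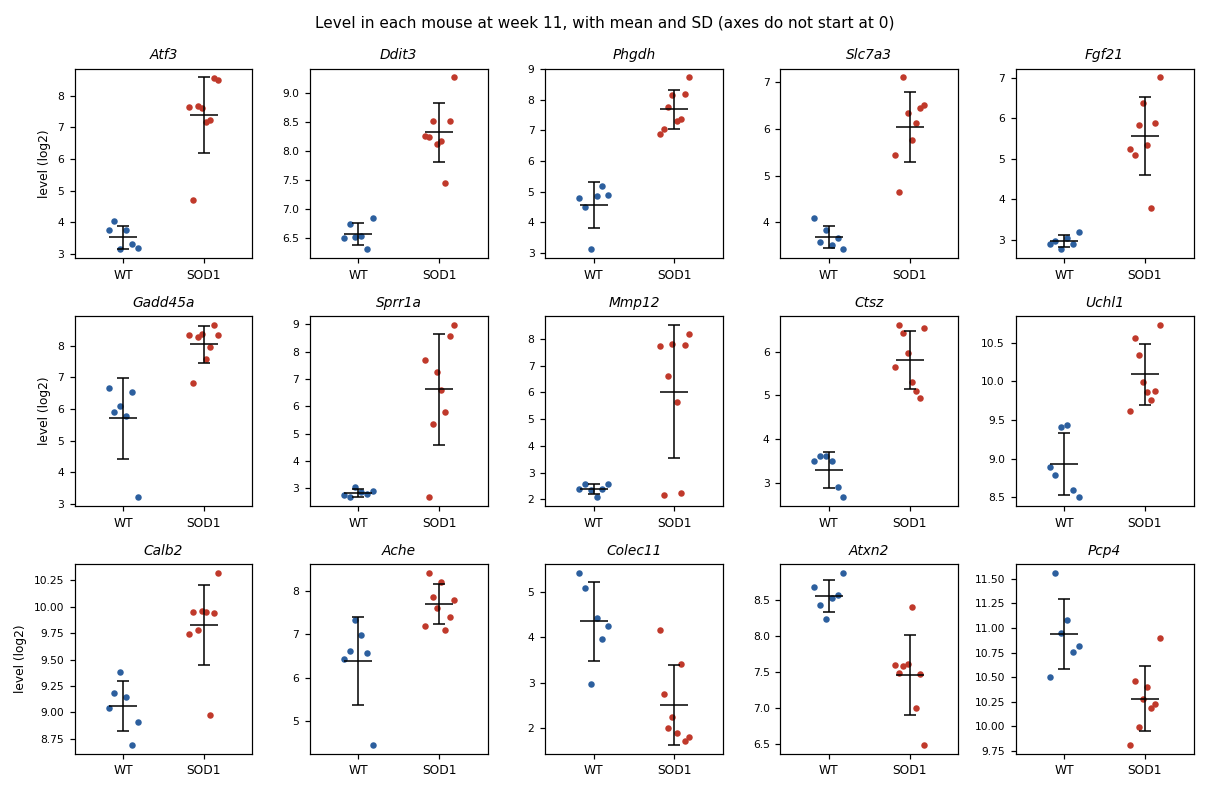
Levels (log2) of single genes in each WT and SOD1 mouse at week 11, 1 point per mouse with the group mean and SD; the axes do not start at 0. Atf3 separates the groups, while for Sprr1a SOD1 mouse 2 lies at 2.69 among the WT mice.

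**Figure D4:**
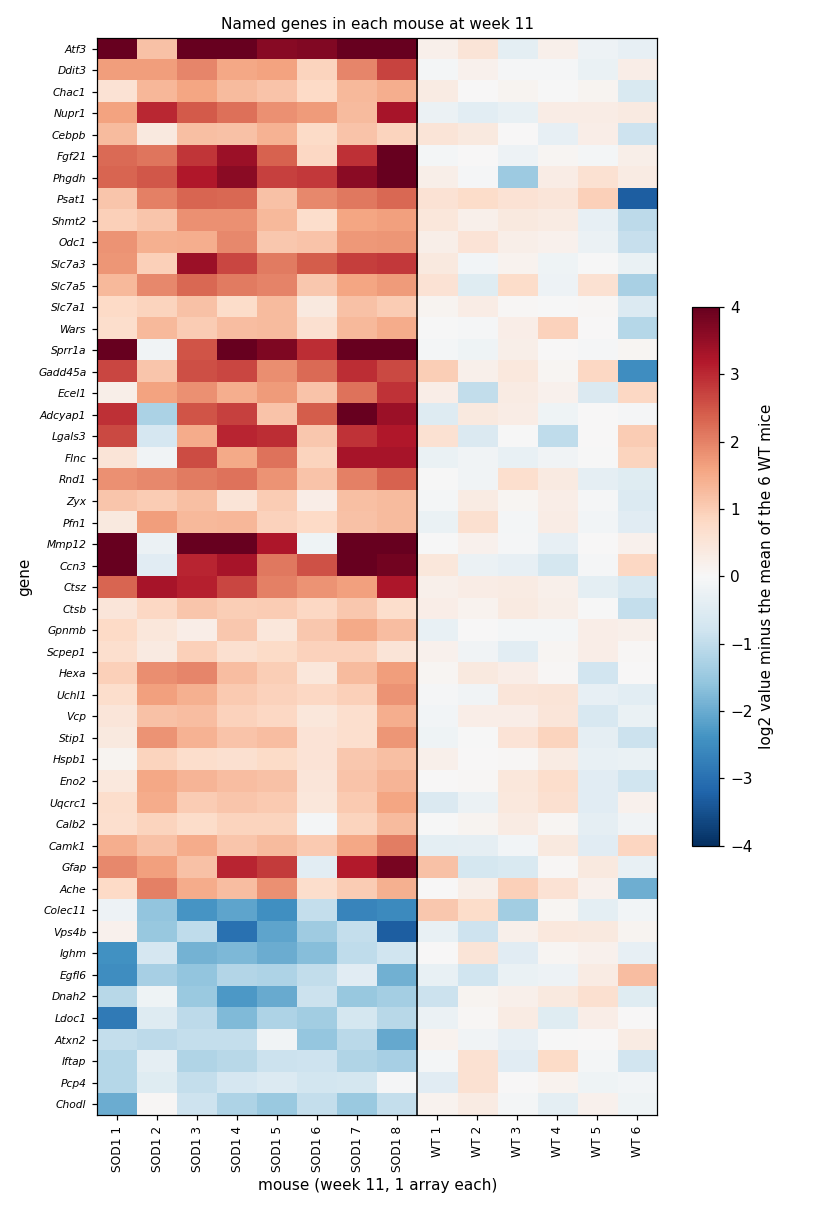
Named genes (y axis) in each mouse of week 11 (x axis), coloured by the log2 value minus the mean of the 6 WT mice (colours stop at 4 and -4). The columns of SOD1 mice 7 and 8 are the strongest for the injury genes and that of mouse 2 the weakest, while the stress response genes are high in all 8.

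Among growth arrest and p53 genes 3 of 33 were called higher, Gadd45a, Phlda3 and Csrnp1, with a median of 0.18 (0.09 without WT mouse 6). Phlda3, a p53 target that restrains Akt, was 1.64-fold higher (0.72 ± 0.17, limma adjusted p = 0.0372), without overlap, but was lost without WT mouse 2 or 5. Trophic factors and neuropeptides were read next. Ccn3, a matricellular growth regulator, read 2.50, 6.12 and 7.08 in SOD1 mice against 2.25, 2.82 and 3.80 in WT mice at one probe set (7.11-fold, 2.83 ± 0.58, limma adjusted p = 0.0116) and was 4.07-fold higher at the other. SOD1 mouse 2 was again within the WT range. Vgf, a granin-like secreted peptide precursor of motoneurons, read 10.09, 10.19 and 10.41 against 8.92, 9.33 and 9.66 without overlap (1.90-fold, 0.92 ± 0.24, limma adjusted p = 0.0628), called in 7 fits. In all, 3 of 40 trophic factor genes were called higher (median 0.06, or 0.03 without WT mouse 6), 2 of 27 neuropeptide genes (0.24), 1 of 34 cytokine receptor genes (Stat3; median 0.00, or -0.03), 1 of 35 Wnt genes (Rspo1, 2.51-fold, 4 fits; median -0.07) and none of 33 BMP, TGF-beta and activin genes (median 0.04, or 0.00). Of 26 immediate early genes 1 was called, Ier2 (1.96-fold, limma adjusted p = 0.0628; 6 fits).

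The cytoskeleton lists differed in their number of calls. Of 45 genes of the actin cytoskeleton list 6 were called higher, none lower, and the median was 0.27. Without WT mouse 5 it had 3 calls. Rnd1, which loosens actin fibres, read 6.51, 7.35 and 7.73 in SOD1 mice and 4.88, 5.30 and 6.05 in WT mice (3.76-fold, 1.91 ± 0.28, limma adjusted p = 0.000214), without overlap. Pfn1, the actin monomer binder profilin-1, whose human gene can cause ALS, was 2.15-fold higher (1.10 ± 0.25, limma adjusted p = 0.0273), and the adhesion protein Zyx 1.92-fold (0.94 ± 0.20, limma adjusted p = 0.0183). Rnd1, Pfn1 and Zyx held in all 14 fits. Cfl1, which severs actin filaments, was 1.87-fold higher (0.91 ± 0.22, limma adjusted p = 0.04) and was lost only without WT mouse 5 (0.84, limma adjusted p = 0.127). Of 35 tubulin and microtubule genes 1 was called, Tubg1 (1.99-fold; 4 fits), of 41 motor genes Dync1h1, the heavy chain of cytoplasmic dynein, was called higher (1.70-fold, limma adjusted p = 0.0494; 10 fits) and the axonemal Dnah2 lower (0.389-fold, limma adjusted p = 0.0628; 6 fits). Of 15 intermediate filament genes 2 were called, Gfap and Dst, a linker protein (1.74-fold; 8 fits), with a median of 0.31 (no call and 0.19 without WT mouse 6).

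Among synaptic and excitability genes the share called differed from list to list, beside 1.71% of all genes. Of 41 synaptic vesicle and SNARE genes 3 were called higher (7.32%), with a median of 0.25. Without WT mouse 6 the vesicle and SNARE list had 1 call and a median of 0.06. Napa, which takes used SNARE complexes apart, was 1.80-fold higher (0.85 ± 0.18, limma adjusted p = 0.0138) and held in all 14 fits, Dnm1, which pinches off vesicles, was 1.99-fold higher (limma adjusted p = 0.0602; 7 fits) and Vamp2 1.56-fold (limma adjusted p = 0.0951; 2 fits). Of 35 potassium channel genes only the subunit Kcnab2 was called (1.61-fold; 10 fits), and none of 27 sodium, calcium and HCN channels, 33 glutamate receptor and scaffold genes or 16 GABA and glycine receptor genes at the brightest probe set. The medians of these 4 lists were 0.04, 0.11, -0.08 and 0.04 (-0.01, -0.07, -0.10 and -0.08 without WT mouse 6), and in the glutamate list 11 of 33 genes lay above 0. The largest differences in the glutamate and the GABA and glycine lists were those of the scaffold Grip1 (-0.90 ± 0.39, limma adjusted p = 0.368) and of the GABA receptor subunit Gabra2 (-0.69 ± 0.25, limma adjusted p = 0.238). Of 33 calcium buffers, pumps and calmodulin kinases 3 were called higher and 1 lower (12.1% in all), with a median of -0.03. The calcium list had 2 called higher, none lower and a median of -0.12 without WT mouse 6. Camk1 was 2.63-fold higher (1.39 ± 0.26, limma adjusted p = 0.00583), without overlap. The buffer Calb2, calretinin, read 8.98, 9.94 and 10.32 against 8.69, 9.10 and 9.38 (1.71-fold, 0.77 ± 0.16, limma adjusted p = 0.0125); it and Camk1 held in all 14 fits. Calretinin also marks interneurons, whose marker list, Calb2 itself included, averaged 6.42 in SOD1 mice and 6.09 in WT mice. Of its other members Gad1 averaged 6.47 and 5.57, Slc6a5 9.39 and 8.75, Slc32a1 9.22 and 8.68 and Slc17a6 10.22 and 9.97. Gad2 averaged 4.39 in both groups and Lhx1 3.25 and 3.44. The part of interneurons in the result was not tested.

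Genes of motoneuron identity came in 4 lists. None of 18 motoneuron transcription factor genes was called (median 0.10, or 0.04 without WT mouse 6, largest difference that of Lhx4 at -0.77 ± 0.36, limma adjusted p = 0.42), and none of 22 Hox genes (median 0.10, or 0.06). In the cholinergic list 1 of 10 was called, Ache, which breaks down acetylcholine. It read 7.10, 7.71 and 8.42 in SOD1 mice and 4.44, 6.58 and 7.33 in WT mice (2.48-fold, 1.31 ± 0.32, limma adjusted p = 0.0473), and without WT mouse 6, which held the lowest value, the difference was 0.92 (limma adjusted p = 0.138). The list of fast and slow motoneuron markers had the lowest median of the 58, at -0.23, with 5 of 16 genes above 0 and 1 called, lower: Pcp4, a calmodulin regulator (0.633-fold, limma adjusted p = 0.0805; 3 fits). Chodl, a lectin-like membrane protein of fast motoneurons, read 8.99, 9.88 and 11.00 in SOD1 mice and 10.57, 10.99 and 11.29 in WT mice. Only SOD1 mouse 2, at 11.00, and no other SOD1 mouse lay within the WT range, and the difference of -1.11 ± 0.33 missed the threshold (limma adjusted p = 0.118). After quantile normalization 3 of the 16 were called lower, with a median of -0.24.

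In energy metabolism the glycolytic enzymes Eno2, the neuronal enolase (2.12-fold, 1.09 ± 0.23, limma adjusted p = 0.0168, all 14 fits), and Hk1 (1.57-fold, limma adjusted p = 0.0908; 4 fits) were called higher among 22 genes, with a median of 0.25 (0.14 without WT mouse 6). No gene of 18 in the tricarboxylic acid cycle (median 0.21, or 0.14) or of 32 in respiratory complex I (median 0.08, or 0.05) was called at the brightest probe set. Ogdh of the cycle was called higher at another probe set (1.51). In the other respiratory complexes 1 of 38 was called: Uqcrc1, a core subunit of complex III, read 7.49, 8.11 and 8.62 against 6.47, 7.03 and 7.69 (2.08-fold, 1.05 ± 0.18, limma adjusted p = 0.002) and held in all 14 fits, beside a list median of 0.09 (0.05 without WT mouse 6). The outer membrane fusion protein Mfn2 was 1.92-fold higher (limma adjusted p = 0.0613; 8 fits) among 45 genes of mitochondrial dynamics and import (median 0.11, or 0.06 without WT mouse 6). In lipid metabolism Fabp3, a fatty acid carrier, was 1.97-fold higher (7 fits) and Fdft1, squalene synthase of the cholesterol pathway, 0.656-fold (7 fits).

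Redox genes gave 1 call among 20 superoxide and peroxide genes, Txnrd1, cytosolic thioredoxin reductase (2.32-fold, 1.21 ± 0.29, limma adjusted p = 0.0391). Without WT mouse 6 its difference was 0.89 (limma adjusted p = 0.121). Of 27 Nrf2 target genes Txnrd1 and the aldo-keto reductase Akr1b8 were called higher (2.48-fold; 4 fits) and Fmo1 lower (0.658-fold; 4 fits), with a median of 0.24, and of 23 metal-binding genes none was called. Sod1 itself is measured by 3 probe sets of the mouse gene. The brightest read 11.60, 11.82 and 12.26 in SOD1 mice and 10.47, 11.42 and 11.73 in WT mice (0.58 ± 0.17, limma adjusted p = 0.109); the others gave -0.84 ± 0.44 and -0.71 ± 0.54. None was called, and no probe set is designed for the human transgene, so that these values do not check the genotype.

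RNA and nuclear genes followed. Of 64 splicing factors 2 were called higher at the brightest probe set (3.12%, beside 1.71% of all genes; none without WT mouse 6), Snrpf, a core protein of spliceosomal particles (1.73-fold, limma adjusted p = 0.0404, without overlap; lost without WT mouse 5 or 6), and Prpf19 (2.12-fold; 4 fits). Smarca4, the ATPase of a chromatin remodelling complex, was 1.75-fold higher (0.81 ± 0.18, limma adjusted p = 0.0251) among 49 chromatin genes, without overlap, and was lost only without WT mouse 5 (0.72, limma adjusted p = 0.101). None of 55 nuclear pore and transport genes, 45 mRNA decay genes or 22 clock genes was called at the brightest probe set. At other probe sets the nuclear transport genes Ipo4, Tnpo3 and Xpo1 were called higher and Seh1l and Kpnb1 lower. In the list of 25 genes linked to ALS in people, Vcp and Pfn1 were called higher and Atxn2, an RNA-binding protein that modifies the disease, lower, with a median of 0.13 (0.02 without WT mouse 6). Atxn2 read 6.49, 7.54 and 8.40 against 8.23, 8.55 and 8.87 (0.47-fold, -1.09 ± 0.24, limma adjusted p = 0.0197) and held in all 14 fits, but only 1 of its 6 probe sets was called and the highest of them gave 0.05. Chchd10 was called at its less bright probe set (0.99 ± 0.19, limma adjusted p = 0.00583; 0.46 ± 0.14 at the brightest).

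Some of the largest differences lay outside the injury and stress lists. Of the 338 genes called, 209 were in no function list, 176 higher and 33 lower. Lhfpl2, a tetraspan membrane protein, read 6.54, 7.35 and 8.45 in SOD1 mice and 2.74, 3.84 and 5.04 in WT mice (10.6-fold, 3.41 ± 0.57, limma adjusted p = 0.00158), without overlap, and was called at 2 of 3 probe sets. Bpifc, of the lipid-binding BPI family, read 2.59, 5.44 and 6.44 against 1.77, 1.93 and 2.53 (8.38-fold, 3.07 ± 0.53, limma adjusted p = 0.002). Cyb5r1, a membrane-bound reductase, read 9.34, 9.79 and 10.19 against 6.89, 7.97 and 8.28 (3.83-fold, 1.94 ± 0.27, limma adjusted p = 0.000113). Reep1, of the list of transport between endoplasmic reticulum and Golgi, is a protein that shapes the endoplasmic reticulum and is mutated in a hereditary spastic paraplegia. It read 4.52, 5.77 and 6.62 against 2.56, 3.61 and 5.89 (3.98-fold, 1.99 ± 0.34, limma adjusted p = 0.00184), with overlap through 1 WT mouse. This was not its brightest probe set, at which Reep1 was not called. At the probe sets given here all 4 genes held in all 14 fits.

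The lower genes were spread over many lists. Over all 58 function lists 7 different genes were called lower at the brightest probe set (Fdft1, Fmo1, Pcp4, Dnah2, Egfl6, Atxn2 and Colec11), and 88 higher. Colec11, a complement-activating lectin, had the largest drop: it read 1.72, 2.13 and 4.15 in SOD1 mice and 2.96, 4.33 and 5.42 in WT mice (0.277-fold, -1.85 ± 0.49, limma adjusted p = 0.0683; 5 fits). Ighm, the immunoglobulin mu chain, read 7.65, 8.33 and 9.42 against 9.63, 10.13 and 10.59, without overlap (0.345-fold, -1.54 ± 0.43, limma adjusted p = 0.0853; 4 fits), although its other probe sets reached 0.06 and the B cell marker Ms4a1 was near the floor at 2.80 and 2.90. Egfl6, a secreted matrix protein, read 2.35, 3.53 and 4.37 against 4.03, 4.58 and 6.04 (0.382-fold, limma adjusted p = 0.0444) and was lost without WT mouse 5 or 6. Vps4b, an ATPase of membrane scission, was 0.321-fold (8 fits) at 1 of 3 probe sets, Ldoc1 0.399-fold without overlap (4 fits) and Siah1a, a ubiquitin ligase, 0.413-fold (3 fits) at 1 of 3. The remaining named genes called lower lay between 0.449-fold (Seh1l) and 0.551-fold (Lrrc14) apart from those given elsewhere. Iftap, at 0.501-fold (-1.0 ± 0.22, limma adjusted p = 0.0248), and Atxn2 were the only named lower genes that held in all 14 fits. Itm2a, a membrane protein, read 9.40, 9.87 and 10.88 against 10.43, 11.28 and 11.84 and was not called (-1.38 ± 0.43, limma adjusted p = 0.136), like Spp2, Aox1, Ptprd, Smarcad1 and Wnk4, whose differences lay between -1.22 and -1.12 with limma adjusted p-values from 0.11 to 0.174.

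Markers of the cells that surround motoneurons in the cord were read in each mouse. Oligodendrocyte markers averaged 7.41 in SOD1 mice (6.97 to 7.73) and 7.10 in WT mice (6.29 to 7.60), with 11 of 11 above the 20th centile of all values in every mouse. Astrocyte markers averaged 7.08 (6.58 to 7.5) and 6.81 (6.50 to 7.14), also with all 12 above it. Of the 12 only Gfap, the astrocyte filament protein, was called: 4.15, 6.93 and 8.37 against 3.86, 4.44 and 5.73 (4.42-fold, 2.14 ± 0.57, limma adjusted p = 0.0705; 6 fits). Microglial markers averaged 4.02 (3.60 to 4.63) and 3.87 (3.72 to 4.03), none of 15 tested was called, and Aif1, Itgam, P2ry12, Cd68, Ptprc and Lyz2 were at or under the 20th centile in some mouse. Endothelial markers averaged 4.56 (4.15 to 4.94) and 4.37 (3.99 to 4.75) and Schwann cell markers 5.75 and 5.67. Red cell markers were at the floor, at 2.69 in both groups.

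Several of the higher genes are known from macrophages and reactive glia as well as from injured neurons, and they stand beside these marker levels. Mmp12, a metalloelastase of macrophages, read 2.18, 7.17 and 8.17 in SOD1 mice and 2.08, 2.40 and 2.58 in WT mice (12.3-fold, 3.62 ± 0.73, limma adjusted p = 0.0112; all 14 fits, but not with only the arrays of week 11). SOD1 mice 2 and 6, at 2.18 and 2.24, were at the WT level and the other 6 at 5.62 or above. The microglial list stood at 3.60 and 3.70 in those mice and between 3.61 and 4.63 in the other 6. SOD1 mouse 8, with the highest microglial level of 4.63, also had the highest Mmp12, Lgals3, Gfap and Sprr1a of all 14 mice. Tyrobp, a microglial adaptor and the marker with the largest difference in its list, read 3.24, 4.25 and 5.97 against 3.13, 3.77 and 4.06 (0.83 ± 0.62, limma adjusted p = 0.699). The part of other cells in the levels of Mmp12, Gfap, Lgals3, Gpnmb and Ctsz, or of any other called gene such as Phgdh, was not tested. In the matrix list Mmp12 and Ccn3 were the 2 genes of 51 called higher and Egfl6 the 1 called lower (median 0.06), and neither the complement list, apart from Colec11, nor the antigen presentation and interferon list (0 of 28 called) gave a call.

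**Figure D5:**
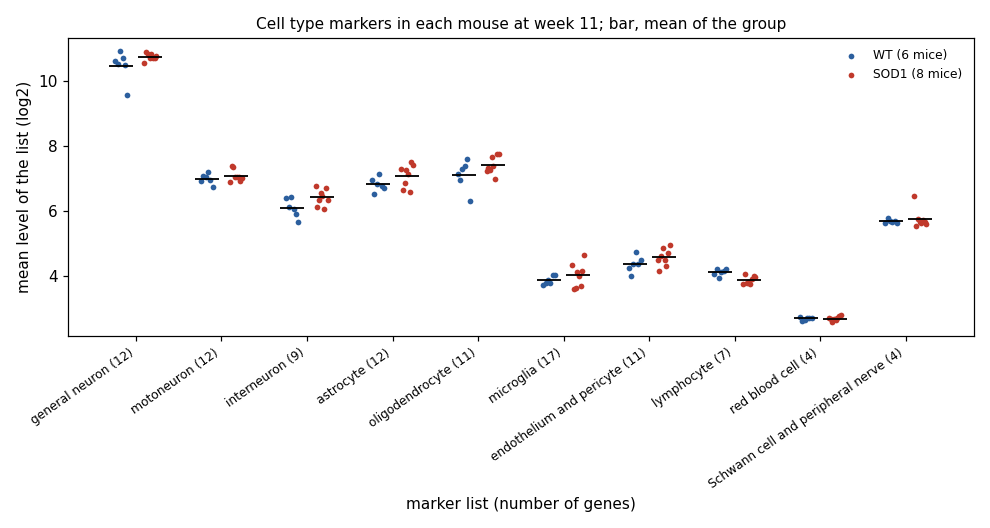
Mean level (log2) of each cell type marker list in every WT and SOD1 mouse of week 11, 1 point per mouse and a bar at the group mean. General neuron markers lie highest, at 9.56 to 10.90, and microglial markers spread from 3.60 to 4.63 among the SOD1 mice.

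The week 15 arrays, from other mice, give the contrast of SOD1 mice carrying a vehicle pump against WT at a later stage. Atf3 differed by 3.85 at week 11 and 3.32 at week 15, Sprr1a by 3.78 and 4.36, Ddit3 by 1.74 and 1.90 and Phgdh by 3.12 and 2.68. Ctsz differed by 2.51 at week 11 and by -0.60 at week 15 (interaction 3.11, limma adjusted p = 0.00025). Calb2 differed by 0.77 and -0.57 (interaction 1.34, limma adjusted p = 0.00597). Chodl differed by -1.11 and -2.89 (interaction 1.78, limma adjusted p = 0.0628). In all, 37 of the 146 named transcripts had an interaction with a limma adjusted p below 0.1. In 33 of them the difference SOD1 minus WT was the higher one at week 11, Chodl among them, whose drop was the smaller at week 11. Most named transcripts were picked by their week 11 difference, 117 of the 146 being called there, and the interaction reuses those values. This selection favours larger differences at week 11, so the count of 33 does not compare the stages. Age cannot be told apart from cohort and pump in this contrast.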

How the data were processed

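Lumbar motoneuron RNA of 35 mice was measured, 1 mouse on each array, and the 8 SOD1 and 6 WT mice of week 11 were compared. The authors deposited log2 values that they made with Affymetrix Expression Console and GCRMA (background correction by probe sequence, quantile normalization and summary per probe set), without stating versions. The array medians of the deposited log2 values nevertheless ran from 3.19 to 3.47, and amplification from few cells can add noise to dim transcripts. Array number limits the precision.

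The study's filter was applied (4 or more arrays over 2.403, the 20th centile of all values, with an SD no lower than 0.2414, its 30th centile). Means of all 5 groups were fitted with limma 3.58.1 in R 4.3.3, with 30 residual degrees of freedom, no covariate and 2-sided tests, in place of the study's ANOVA, which was run as an alternative. Python 3.11.15 with pandas 2.3.3, numpy 2.4.6, scipy 1.17.1 and matplotlib 3.10.9 made the rest. Simulated arrays with known changes were used to test the limma script. Of 45101 probe sets, 34945 named 1 gene, 932 several and 9224 none in the platform annotation, and only those naming 1 gene were named. Probe sets ending in _x_at or _s_at can match other transcripts. Gene positions are not given, since no source used here names the build of the probe annotation.

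Named genes were the called genes with the largest differences (up to 20 in each direction), up to 6 called members of each list or, in a list with none, the member that differed most, the genes of the study's own week 11 table, every Sod1 probe set and the cell type markers. Atf4, Sox11, Itga7, Asns, Chchd10, Ogdh, Ipo4, Tnpo3, Xpo1 and Kpnb1 lie outside this rule or were read at other probe sets, and were named after their values were seen. The members and the 58 function and 10 marker lists were chosen with earlier results of these data known. Results of 1 gene the paper names are not reported here. Alternatives covered the filter, normalization, thresholds, covariates, array weights, the replicate block and leaving out each mouse; the numbers of the mice did not pair them.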

Additional observations from a re-analysis of the deposited data

Results flagged for a closer look

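Of 292 values of named transcripts tested, each in the mice of 1 group, 49 had a single mouse far from the others (Dixon's criterion), where chance gives about 5%, or 1 in 20. Of these 22 were SOD1 and 27 WT mice, and WT mouse 6 was the outlying mouse in 23, 19 times as the lowest and 4 times as the highest. It was lowest for Gadd45a (3.2), Stbd1 (4.60), Cyb5r1 (6.89), Psat1 (3.42), Siah1a (6.09), Chac1 (6.53), Tars (5.74), Gars (7.58), Ndufa9 (6.16), Cct8 (4.32), Dnajb1 (9.26), Ctsb (8.94), Snx1 (3.97), Tmed9 (7.68), Ache (4.44), Hoxd8 (2.49), Xrn2 (2.68), Mfn2 (5.12) and Cldn11 (3.90), and highest for Serpinb9g (7.10), Zfp825 (5.60), the second Ctsz probe set (5.94) and Flnc (5.72). Other outlying WT mice were mouse 3, lowest for Phgdh (3.11) and highest for Rspo1 (4.78), mouse 5, lowest for Hexa (6.74), and mouse 4, highest for Napa (9.20).

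Among the SOD1 mice, mouse 2 was lowest for Atf3 (4.71), Bpifc (2.59), Ccn3 (2.50), Cstb (10.42) and Scn9a (3.21) and highest for Dpys (3.40) and Itm2a (10.88). Mouse 6 was lowest for Rnd1 (6.51), Napa (8.24), Kcnab2 (7.26) and Calb2 (8.98). Mouse 1 was lowest for Rars (7.19), Sqstm1 (7.80), Ly6e (4.69), Aox1 (5.11) and Smarcad1 (3.29) and highest for Egr2 (5.02). Mouse 5 was lowest for Psmc5 (8.50), Cct8 (7.84) and Atp2b1 (8.73), mouse 8 highest for Rhov (7.04) and mouse 3 highest for Ptprd (4.66).

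The SOD1 difference was not equal at both weeks for 37 named transcripts, by limma's interaction of week and genotype at an adjusted p below 0.1. Age, cohort and the vehicle pump of the week 15 SOD1 mice cannot be told apart in it. Values are the week 11 difference minus the week 15 difference on the log2 scale. Most named transcripts were picked by their week 11 difference, which the interaction reuses, so larger differences at week 11 are favoured by the selection. Protein folding, turnover and transport genes had a higher difference at week 11: Cct8 2.69, Psmc5 1.69, Sqstm1 1.49, Uchl1 1.38, Stip1 1.25, Hspb1 1.25, Tmed9 1.21, Herpud1 1.15, Vcp 1.09 and Dnajb1 0.76. So were actin and synaptic genes, with Rnd1 1.62, Pfn1 1.49, Dnm1 1.33, Zyx 1.24, Cfl1 1.15, Kcnab2 1.14, Sema6a 1.06 and Napa 0.84. Ctsz differed by 3.11, Reep1 by 2.01, Ache by 2.01, Chodl by 1.78 (lower in SOD1 mice at both weeks), Prpf19 by 1.70, Rars by 1.46, Eif5a by 1.44, Txnrd1 by 1.35, Cyb5r1 by 1.34, Calb2 by 1.34, Eno2 by 1.24, Slc7a5 by 1.19, Odc1 by 1.03, Sod1 by 1.00 and Uqcrc1 by 0.99. In 4 the value was below 0: Egfl6 at -1.71, Serpinb9g at -1.54, Iftap at -1.24 and 4933431E20Rik at -1.11.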

How the results depend on the processing

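The counts of called transcripts moved with many choices, and the cause was not tested. In all, the 413 called transcripts became 694 by ANOVA and Tukey's test with an adjusted ANOVA p, 56 with an adjusted Tukey p, 216 after quantile normalization, 165 at a fold change of at least 2, 174 at an adjusted p below 0.05, 1114 with array weights and 144 with the 18S control as a covariate. The 354 higher calls became 575, 53, 173, 153, 159, 884 and 127 under the same choices in that order, and 234 with only the arrays of week 11. The 59 lower calls became 119 and 3 by the ANOVA with either p, 12 at 2-fold, 15 at the stricter adjusted p, 230 with weights and 17 with 18S. Leaving out 1 mouse at a time gave 147 to 563 calls, 131 to 471 of them higher and 16 to 92 lower, with the lowest counts without WT mouse 5. For the genes of the function lists at the brightest probe set, 88 higher calls became 19 with an adjusted Tukey p, 43 after quantile normalization, 46 at 2-fold, 44 at the stricter adjusted p, 159 with weights and 34 with 18S, and ranged from 39 to 104 without 1 mouse. The 7 lower calls became 11 with only week 11, 16 and 0 by the ANOVA with either p, 4 at 2-fold, 2 at the stricter p, 24 with weights, 12 with the Gapdh covariate, 4 with 18S and 12 when any probe set counted, and ranged from 1 to 8 without 1 mouse. The replicate numbers are shared by 6 mice in each group, but the correlations of same-numbered mice ran from -0.125 to 0.096 and in 1 of 6 the best partner had the same number. The replicate block gave 9 calls (7 higher, 2 lower; list members 2 and 0), and the same 12 arrays without the block, an alternative chosen after seeing the data, gave 47 (42 higher, 5 lower; list members 14 and 0). Without 3 arrays that stood apart, also chosen after seeing the data, 32 were called lower. Of the 413, quantile normalization kept 202 and the 18S covariate 121. Over the named transcripts and all alternatives no direction reversed, while 1185 values lost the call, 59 gained it and 3718 kept their side of the threshold. Of the 58 lists, 50 had a median above 0, or 49 with the median of all probe sets of a gene.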

Other observations

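Among the called genes in no function list that were called in all 14 fits without 1 mouse, and chosen here after their values were seen, were Polr1d, a subunit of RNA polymerases I and III (1.70), Stk39, a kinase that regulates chloride transport (1.56), Get3, which guides tail-anchored proteins to the endoplasmic reticulum (1.44), and Rad23b, which carries ubiquitinated proteins to the proteasome (1.37). Smaller differences of this kind were those of the neurite protein Ncdn (1.25), the adaptor Ywhae (1.07), the cold-inducible RNA-binding protein Cirbp (0.93) and Srm, spermidine synthase (0.91, limma adjusted p = 0.00364), the enzyme downstream of Odc1 in polyamine synthesis. All are differences SOD1 minus WT on the log2 scale.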
